A study of Mus musculus with 33 samples.

Results

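Egfr, Erbb2, Erbb3, Erbb4, Fgfr1, Fgfr2, Fgfr3, Igf1r and Insr encode the mouse receptor tyrosine kinases for epidermal growth factor (EGF) and neuregulins, fibroblast growth factors (FGF), and insulin-like growth factor (IGF) and insulin. They were taken by symbol and make up 9 of the 26621 genes in the count tables. The cells were neural stem cells from the mouse hippocampus at postnatal day 0.5, cultured with 20 ng/mL EGF and 20 ng/mL basic FGF, so ligands of both receptor families were in the medium of every group. RNA-seq covered 18 libraries: cells labelled cKO and cells labelled WT, each after 0, 2 and 4 h in 5 µM actinomycin D, a drug that blocks transcription, with 3 libraries per group. The genotype label reads Nestin-cKO or Nestin-WT and the titles read Ythdf2-cKO or Ythdf2-WT, where Nestin is a gene of neural progenitors and YTHDF2 is a protein that binds N6-methyladenosine (m6A) in mRNA and promotes its decay. The alleles behind these names, and whether replicates came from separate animals, are not stated in the labels, so p-values measure the spread between these libraries, which may be technical. Untreated WT cells gave 3 m6A pull-down and 3 input libraries, and, in another series, 3 YTHDF2 pull-down, 3 IgG control and 3 input libraries.

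A typical receptor tyrosine kinase, though not every one listed here, is a membrane protein that pairs up when it binds its ligand. It phosphorylates itself and docking proteins inside the cell, which then turn on the RAS-ERK and PI3K-AKT cascades. EGFR binds EGF, TGF-alpha, amphiregulin and related ligands. ERBB3 and ERBB4 bind neuregulins, and ERBB2 has no known ligand and acts as a partner of the others. FGFR1, FGFR2 and FGFR3 bind FGFs together with heparan sulfate. IGF1R and the insulin receptor INSR are close relatives that also form hybrids. In neural stem cell cultures EGF and FGF keep cells dividing, and FGFR3 is a marker of astroglia and radial glia.

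The 250 bases before the annotated start are given for 1 receptor of each family whose levels are described in the following paragraphs. They come from RefSeq, GRCm38.p6, plus strand, 5′ to 3′, and capitals mark the GC box, GGGCGG or its reverse complement CCGCCC, the sequence to which SP1 family factors can bind.
Fgfr3, chr5:33721474-33721723: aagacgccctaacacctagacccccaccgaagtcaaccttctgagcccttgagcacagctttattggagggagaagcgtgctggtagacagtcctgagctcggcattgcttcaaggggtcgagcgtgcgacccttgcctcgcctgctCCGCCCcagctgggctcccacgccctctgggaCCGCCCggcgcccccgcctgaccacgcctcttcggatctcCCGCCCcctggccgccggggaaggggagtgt
Igf1r, chr7:67952007-67952256: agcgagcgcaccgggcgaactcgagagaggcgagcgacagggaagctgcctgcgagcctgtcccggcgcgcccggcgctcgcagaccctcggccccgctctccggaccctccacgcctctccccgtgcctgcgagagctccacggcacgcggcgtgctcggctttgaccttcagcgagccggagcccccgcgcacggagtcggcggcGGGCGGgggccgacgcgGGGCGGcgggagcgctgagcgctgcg
Egfr, chr11:16751953-16752202: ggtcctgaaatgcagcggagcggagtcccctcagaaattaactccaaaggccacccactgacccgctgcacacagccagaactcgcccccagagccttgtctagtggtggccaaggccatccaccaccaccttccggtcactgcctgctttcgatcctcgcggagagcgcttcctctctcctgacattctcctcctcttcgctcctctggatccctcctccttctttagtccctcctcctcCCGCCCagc
A GC box stood 3 times in the Fgfr3 window, 2 times in that of Igf1r and 1 time in that of Egfr. Over all RefSeq promoters, 10756 of 32851 windows of this length held it on either strand, or 32.7%. The windows of Erbb2, at chr11:98412234-98412483, and Fgfr2, at chr7:130266809-130267058 on the minus strand, held none. TATAAA or its reverse complement was in none of these 5 windows and in 12.4% of all. The G and C content of the window was 66.8% for Fgfr3, 77.6% for Igf1r, 60.8% for Egfr, 66.0% for Erbb2 and 44.0% for Fgfr2. A match or its absence is a description of these letters only. Erbb3, Fgfr1 and Insr had no entry, and the window of Erbb4 and a second one of Fgfr3, at chr5:33722056-33722305 with 2 GC boxes, lay inside the gene.

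The libraries held 10257329 to 21353383 counts in RNA-seq, 12892222 to 28334300 in the m6A series and 8419106 to 23097887 in the YTHDF2 series. Ythdf2 went against the labels. It had 3117, 1035 and 736 normalized CPM (counts relative to library size, with TMM scaling, from the deposited counts) in the 0 h libraries labelled cKO, against 219, 253 and 258 CPM in those labelled WT, higher by 2.74 on the log2 scale (SE 0.35, adjusted p = 2.7e-04). The difference was 4.00 at 2 h and 4.31 at 4 h. Counts per gene do not show whether exons are missing, so groups are called by their labels throughout. Libraries labelled cKO also differed more from each other than those labelled WT did: a chi-square of counts per gene between replicates at 0 h was 33.4 to 158 among libraries labelled cKO and 7.10 to 12.1 among those labelled WT. The larger values at 0 h were those of replicate 1 labelled cKO. The summed deposited TPM of 11 neural stem and progenitor markers was 10531 to 17640 in the 0 h libraries labelled cKO, against 25194 to 26891 in those labelled WT, and none of the 11 was at 0. That sum was mostly Fabp7, at a mean of 9982 TPM in libraries labelled cKO and 22017 TPM in those labelled WT. Of the 10 tested, Fabp7, Hes5 and Pax6 were lower, Vim was higher, and the median log2 difference was -0.08; at 2 h 3 were higher and 2 lower, and at 4 h 3 were higher and 3 lower. The sum of 8 fibroblast and meningeal markers was 17.3 to 59.9 TPM in the 0 h libraries labelled cKO, against 1.60 to 3.79 TPM in those labelled WT, and 6 of its 7 tested markers were higher at each time. Astrocyte markers summed to 543 to 920 TPM in the 0 h libraries labelled cKO, against 1210 to 1943 TPM in those labelled WT. Of these 8 markers 4 were lower at 0 h, 5 at 2 h and 7 at 4 h, and none was higher. Neuron markers summed to 184 to 198 TPM in the 0 h libraries labelled cKO, against 487 to 568 TPM in those labelled WT. Of these 8 markers 5 were lower and 1 higher at 0 h. At 2 h 4 were lower and at 4 h 5, with none higher. Oligodendrocyte lineage markers summed to 195 to 441 TPM in the 0 h libraries labelled cKO, against 340 to 392 TPM in those labelled WT. Of these 10 markers 5 were lower and 1 higher at 0 h, and 6 lower and 1 higher at 2 and 4 h, with median log2 differences of -1.82, -2.87 and -2.64 at 0, 2 and 4 h. Pdgfra, Gpr17 and Enpp6 were among those lower at 0 h. Beside these marker counts, 7.71% of all genes tested were higher and 9.89% lower at 0 h. The shares were 8.52% and 8.54% at 2 h, and 11.0% and 9.11% at 4 h. Endothelial markers summed to at most 1.17 TPM at 0 h, with Cdh5 and Cldn5 at 0 in both groups, and microglial markers to at most 3.10 TPM, with 4 of 6 at 0 in each group. The part of these markers in the receptor results was not tested, and in bulk RNA fewer cells of a type and less RNA per cell cannot be told apart.

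Per transcript length, Egfr was the highest of the receptors in the 0 h libraries of both labels. In the 0 h libraries labelled cKO the mean level was 25.3 TPM for Egfr, 19.7 for Fgfr1, 9.49 for Fgfr3, 8.58 for Fgfr2, 7.62 for Igf1r, 5.16 for Insr, 0.663 for Erbb2, 0.516 for Erbb4 and 0.0525 for Erbb3. Ranges of neighbours in that order overlapped for Egfr and Fgfr1, for Fgfr3, Fgfr2 and Igf1r, and for Erbb2 and Erbb4. In the 0 h libraries labelled WT the order was Egfr at 32.8 TPM, Fgfr3 at 20.9, Fgfr1 at 10.8, Fgfr2 at 6.66, Igf1r at 4.75, Insr at 4.03, Erbb4 at 3.76, Erbb2 at 0.276 and Erbb3 at 0. There, ranges overlapped only between Igf1r and Insr and between Insr and Erbb4. The place of Fgfr1 and Fgfr3 was thus exchanged between the labels, and the mean of Erbb4 stood below that of Erbb2 in libraries labelled cKO, though not in replicate 1, with 0.357 TPM of Erbb4 and 0.0913 TPM of Erbb2. The summed level of all receptors was 65.0 to 85.4 TPM in the 0 h libraries labelled cKO and 81.5 to 87.0 TPM in those labelled WT.

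**Figure D1:**
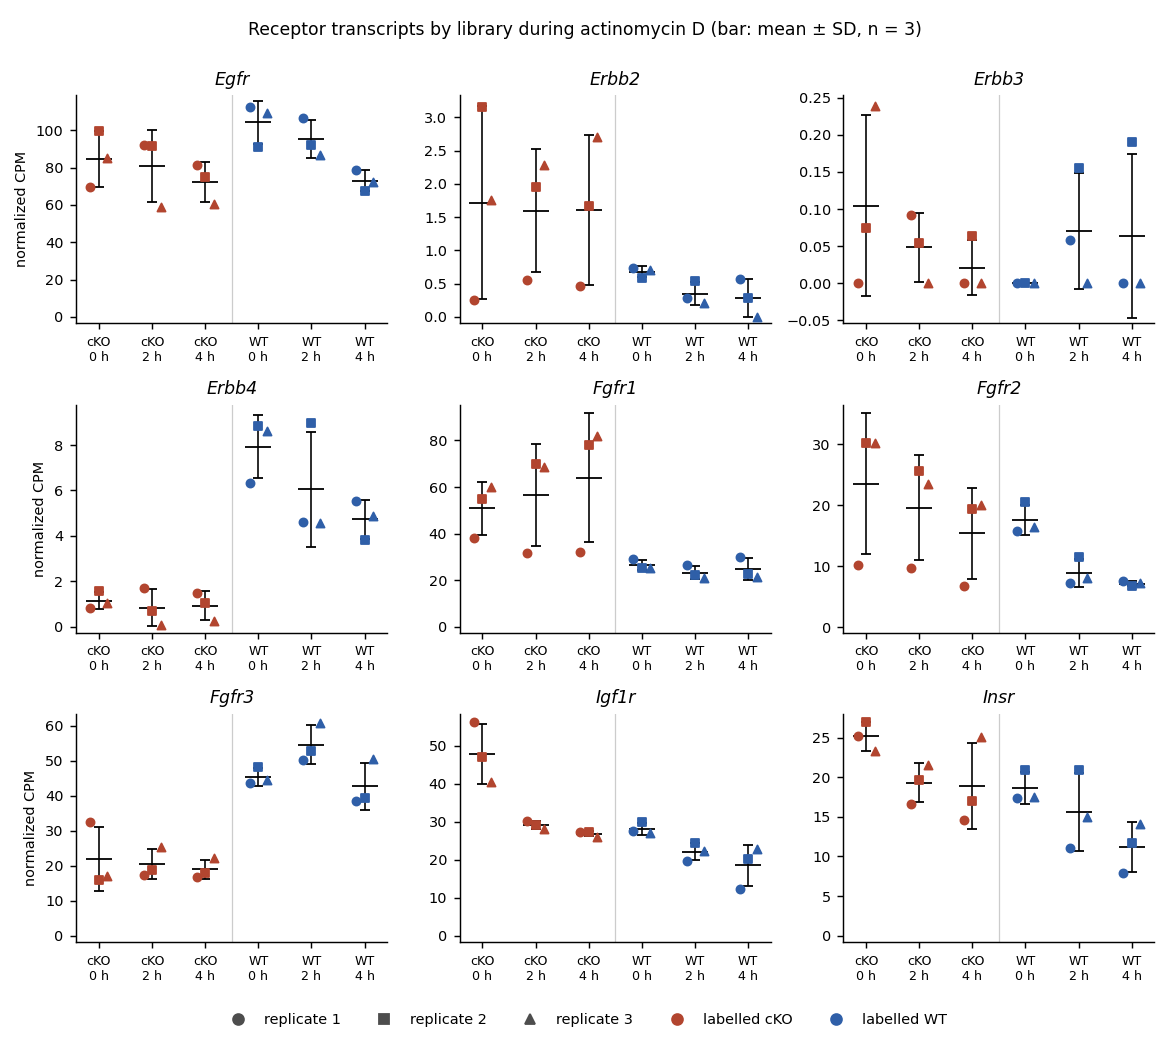
Level of each receptor in the RNA-seq libraries, with points for replicates, by label and time in actinomycin D (0, 2 and 4 h), in normalized CPM, and bars for mean and SD of 3 libraries. Erbb4 and Fgfr3 lie lower in libraries labelled cKO than in those labelled WT at every time, and Fgfr1 lies higher.

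In the comparison of the labels, Erbb4 and Fgfr3 were lower in libraries labelled cKO at every time, Fgfr1 was higher at 2 and 4 h and Igf1r was higher at 0 h. At each time 3 of the 8 receptors tested passed, 1 higher and 2 lower. Among all 14029 genes tested, 7.71% were higher and 9.89% lower at 0 h, 8.52% and 8.54% at 2 h, and 11.0% and 9.11% at 4 h. This balance moved with the scaling: of all calls, 43.8%, 49.9% and 54.8% were higher at 0, 2 and 4 h, against 18.9%, 23.2% and 27.5% with ribosomal protein genes as reference. It was 29.6% at 0 h by limma on TPM, and 67.6% at 2 h and 72.4% at 4 h with library size alone. The median log2 difference over the 8 receptors was 0.43 at 0 h, 0.35 at 2 h and 0.65 at 4 h, against -0.01, 0.05 and 0.08 over all genes. Erbb3, a neuregulin receptor with little kinase activity, was not tested, since it had 0 to 3 counts in every RNA-seq library.

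Egfr, the receptor for the EGF in the medium, had 69.6, 99.6 and 85.2 CPM in the 0 h libraries labelled cKO, against 113, 91.3 and 109 CPM in those labelled WT. The groups overlapped, and the log2 difference was -0.30 (95% interval -0.71 to 0.11, adjusted p = 0.282). At 2 h it was -0.23 (interval -0.64 to 0.18) and at 4 h -0.01 (interval -0.42 to 0.40), and neither passed.

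Erbb4, the neuregulin receptor, had 0.828, 1.58 and 1.04 CPM in the 0 h libraries labelled cKO, against 6.34, 8.85 and 8.60 CPM in those labelled WT. Every library labelled cKO lay below every library labelled WT, and the mean was 0.146 of the WT level (log2 difference -2.77, SE 0.60, adjusted p = 0.00765). At 2 h it had 1.70, 0.703 and 0.0763 CPM in libraries labelled cKO, against 4.61, 8.98 and 4.55 CPM in those labelled WT (log2 difference -2.77, SE 0.60, adjusted p = 0.00723). At 4 h it had 1.49, 1.02 and 0.240 CPM in libraries labelled cKO, against 5.52, 3.82 and 4.85 CPM in those labelled WT (log2 difference -2.36, SE 0.61, adjusted p = 0.0141). The groups did not overlap at either time. Erbb4 had few counts in libraries labelled cKO, 10 to 21 at 0 h, 1 to 37 at 2 h and 4 to 26 at 4 h. Those labelled WT had 94 to 145, 79 to 116 and 40 to 88 counts at these times. A culture here means the 3 time points of 1 label and replicate number. The call at 0 h was lost without any of the 3 WT cultures (adjusted p between 0.0506 and 0.0690), that at 2 h without cKO culture 2 or WT culture 2 (0.0549 and 0.0718), and that at 4 h without cKO culture 2, any WT culture or replicate 3 labelled cKO at 4 h (0.0505 to 0.0762).

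Erbb2, the partner of the other EGF family receptors, had few counts. There were 3, 42 and 22 counts, or 0.248, 3.15 and 1.75 CPM, in the 0 h libraries labelled cKO, against 11, 7 and 12 counts, or 0.742, 0.590 and 0.711 CPM, in those labelled WT. Replicate 1 labelled cKO was below the WT libraries and the other two were above them. The log2 difference was 1.33 (SE 0.86, adjusted p = 0.280) at 0 h, 2.20 (SE 0.91, adjusted p = 0.0995) at 2 h and 2.46 (SE 0.96, adjusted p = 0.0704) at 4 h. Without cKO culture 1 it was 1.83 (adjusted p = 0.0421), 2.62 (adjusted p = 0.0076) and 2.90 (adjusted p = 0.0048) at 0, 2 and 4 h, all past the threshold. With every library, the difference at 4 h also passed by DESeq2 (2.48, adjusted p = 0.0310) and without the low-count filter (adjusted p = 0.0456).

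Among the FGF receptors, Fgfr1 and Fgfr3 moved in opposite directions between the labels. Fgfr3 had 32.6, 16 and 17.2 CPM in the 0 h libraries labelled cKO, against 43.6, 48.4 and 44.5 CPM in those labelled WT, or 0.482 of the WT level (log2 difference -1.05, SE 0.24, adjusted p = 0.00991). At 2 h it had 17.3, 18.6 and 25.3 CPM in libraries labelled cKO, against 50.2, 52.7 and 60.9 CPM in those labelled WT (log2 difference -1.42, SE 0.24, adjusted p = 0.00165). At 4 h it had 16.7, 18 and 22.1 CPM in libraries labelled cKO, against 38.4, 39.4 and 50.5 CPM in those labelled WT (log2 difference -1.17, SE 0.24, adjusted p = 0.00417). The groups did not overlap at any time. The calls at 2 and 4 h held under all 20 alternatives tried, and that at 0 h was lost without cKO culture 2 or any of the 3 WT cultures (adjusted p between 0.0647 and 0.0738).

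Fgfr1 had 38.1, 54.7 and 60.0 CPM in the 0 h libraries labelled cKO, against 29.1, 25.4 and 25.3 CPM in those labelled WT. The groups did not overlap, but the log2 difference of 0.94 (SE 0.32) did not pass (adjusted p = 0.0547). It was 1.11 without cKO culture 1 (adjusted p = 3e-04) and 0.98 by DESeq2 (adjusted p = 0.0232), both past the threshold, and it also passed with RLE factors (adjusted p = 0.0479), without the low-count filter (adjusted p = 0.0281) and in a fit of the 6 compared libraries alone (adjusted p = 0.0191). At 2 h Fgfr1 had 31.5, 70.0 and 68.5 CPM in libraries labelled cKO, against 26.5, 22.4 and 20.9 CPM in those labelled WT (log2 difference 1.28, SE 0.32, adjusted p = 0.0153). At 4 h it had 32.1, 78.0 and 81.9 CPM in libraries labelled cKO, against 30.0, 22.8 and 21.6 CPM in those labelled WT (log2 difference 1.37, SE 0.32, adjusted p = 0.00947). Replicate 1 labelled cKO was close to the WT libraries at all 3 times. The call at 2 h was lost in 8 of the leave-outs (adjusted p between 0.0566 and 0.115): without cKO culture 2, any WT culture, replicate 2 or 3 labelled cKO at 2 h, or replicate 2 or 3 labelled WT at 2 h. That at 4 h was lost without cKO culture 2, WT culture 2 or 3, or replicate 3 labelled WT at 4 h (0.0545 to 0.0960).

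Fgfr2, which like the others binds FGFs and is found in glia and progenitors, had 10.3, 30.2 and 30.3 CPM in the 0 h libraries labelled cKO, against 15.8, 20.5 and 16.5 CPM in those labelled WT. Replicate 1 labelled cKO lay below the WT libraries and the others above, and the log2 difference was 0.42 (SE 0.42, adjusted p = 0.499). It was 1.14 (SE 0.43, adjusted p = 0.0749) at 2 h and 1.10 (SE 0.43, adjusted p = 0.0797) at 4 h. Without cKO culture 1 it was 0.78 (adjusted p = 0.0082), 1.46 (adjusted p = 1e-04) and 1.45 (adjusted p = 1e-04) at 0, 2 and 4 h, all past the threshold. With every library, the difference at 2 h also passed by DESeq2 (1.13, adjusted p = 0.0436), without the low-count filter (adjusted p = 0.0416) and with library size alone (adjusted p = 0.0497), and that at 4 h with library size alone (adjusted p = 0.0489).

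The mix of FGF receptors within a library does not depend on scaling between libraries. The ratio of Fgfr1 to Fgfr3 in TPM was 1.03, 3.0 and 3.06 in the 0 h libraries labelled cKO, against 0.586, 0.462 and 0.500 in those labelled WT. Over all times it was 1.03 to 3.80 in the 9 libraries labelled cKO and 0.301 to 0.686 in the 9 labelled WT, with no overlap. The 9 libraries of a label are 3 cultures at 3 times, so they are not 9 separate replicates. At 0 h Fgfr1 made up 51.5% ± 5.78 of the summed FGFR TPM in libraries labelled cKO and 28.1% ± 2.80 in those labelled WT (SD, n = 3 each). Fgfr3 made up 26.6% ± 14.8 in libraries labelled cKO and 54.6% ± 1.32 in those labelled WT (SD, n = 3 each). Fgfr2 made up 21.9% ± 9.15 in libraries labelled cKO and 17.3% ± 1.72 in those labelled WT (SD, n = 3 each). The ratio was not tested, since it is made from genes whose difference had been seen.

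**Figure D2:**
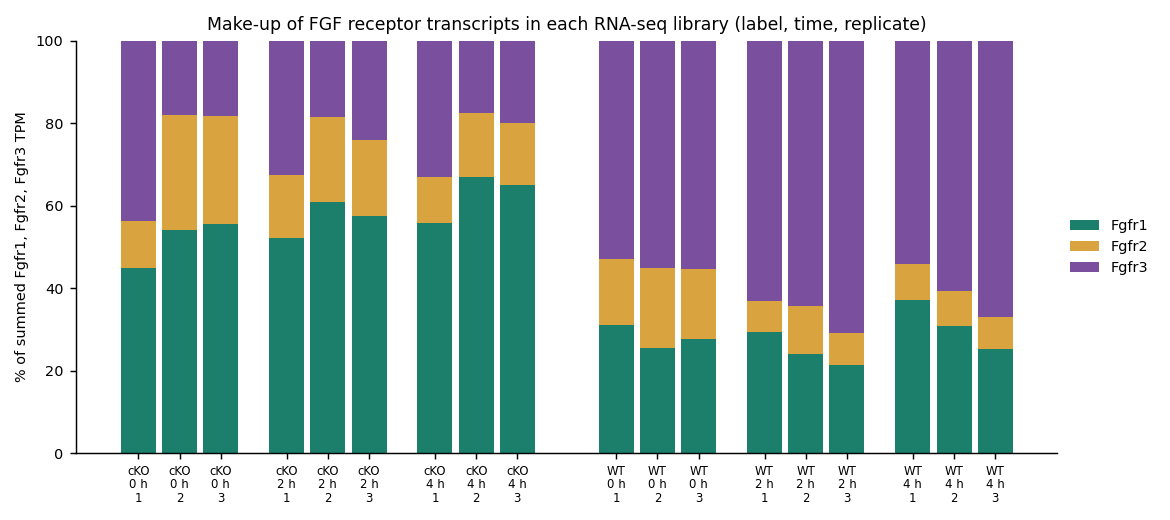
Share of Fgfr1, Fgfr2 and Fgfr3 in their summed level (deposited TPM, percent), with 1 stacked bar per RNA-seq library by label, time and replicate. Fgfr1 averages 51.5% in libraries labelled cKO at 0 h, and Fgfr3 averages 54.6% in those labelled WT.

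Igf1r, the receptor for IGF1 and IGF2, had 56.1, 46.9 and 40.4 CPM in the 0 h libraries labelled cKO, against 27.6, 29.8 and 26.9 CPM in those labelled WT. Every library labelled cKO was above every library labelled WT, 1.70-fold on average (log2 difference 0.77, SE 0.20, adjusted p = 0.0177). At 2 h it had 30.0, 29.1 and 27.9 CPM in libraries labelled cKO, against 19.8, 24.3 and 22.2 CPM in those labelled WT, a difference of 0.39 that did not pass (adjusted p = 0.173). At 4 h the difference of 0.54 did not pass either (adjusted p = 0.0638). With library size alone both passed, at 0.56 (adjusted p = 0.0444) and 0.74 (adjusted p = 0.0119). The call at 0 h was lost without cKO culture 2, WT culture 2 or 3, or replicate 1 or 3 labelled WT at 0 h (adjusted p between 0.0617 and 0.0831). It was also lost with ribosomal protein genes as the reference (log2 difference 0.57, adjusted p = 0.0617).

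Insr, the insulin receptor, had 25.2, 27.0 and 23.3 CPM in the 0 h libraries labelled cKO, against 17.4, 21.0 and 17.5 CPM in those labelled WT. The groups did not overlap, yet the log2 difference of 0.43 (95% interval -0.11 to 0.98) did not pass (adjusted p = 0.243). It was 0.31 at 2 h (adjusted p = 0.420) and 0.75 at 4 h (adjusted p = 0.0521), and at 4 h it was 0.90 without cKO culture 1 (adjusted p = 0.0165), 0.72 by DESeq2 (adjusted p = 0.0411) and 0.96 with library size alone (adjusted p = 0.0210), all past the threshold. The ratio of Igf1r to Insr TPM was 1.74, 1.36 and 1.35 in the 0 h libraries labelled cKO, against 1.24, 1.11 and 1.20 in those labelled WT.

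**Figure D3:**
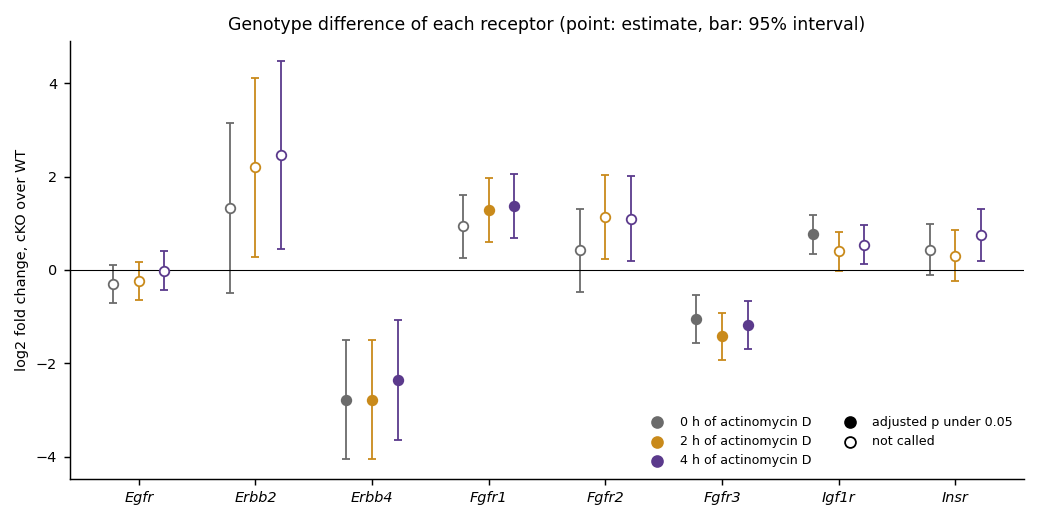
Log2 difference of each tested receptor, libraries labelled cKO over those labelled WT, at 0, 2 and 4 h, with 95% intervals as bars and filled points for adjusted p under 0.05. Erbb4 and Fgfr3 are filled and below 0 at every time, Fgfr1 is filled and above 0 at 2 and 4 h, and Igf1r at 0 h.

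Some genes around the receptors in the pathway also differed between the labels at 0 h, where 7.71% of all genes were higher and 9.89% lower in libraries labelled cKO. Of the 11 EGF family ligands 7 were tested, 3 were higher and 1 lower in libraries labelled cKO: Hbegf by 1.61 (adjusted p = 0.013), Areg, which encodes amphiregulin, by 3.32 (adjusted p = 0.018) and Ereg, which encodes epiregulin, by 2.94 (adjusted p = 0.025) on the log2 scale, while Egf was at -2.48 (adjusted p = 0.027). At 2 h none of the 7 was higher and 1 was lower, with a median of -0.13, against 0.58 at 0 h. At 4 h 1 of the 7 was higher and 1 lower (median 0.57), where 11.0% of all genes were higher and 9.11% lower. Of 18 FGF ligands 2 were tested. At 0 h Fgf9 was higher by 5.15 (adjusted p = 0.0016) while Fgf1 was at 0.32 (adjusted p = 0.26). At 2 h neither of these 2 passed, and at 4 h 1 was higher (median 1.34). Of 11 IGF and insulin ligands and binding proteins 7 were tested, and 4 were higher and 1 lower at 0 h. Igfbp3 at 2.59, Igfbp2 at 2.02 and Igfbp4 at 1.62 rose and Igfbp5 fell by 1.66, all of them secreted proteins that bind IGFs. The Igfbp5 call was also made at 2 h (-2.15) and 4 h (-2.47), and Igf2, an IGF1R ligand, was higher by 3.73 at 2 h and 3.30 at 4 h.

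Of 16 co-receptors and related receptors 11 were tested at 0 h, with 2 higher and 1 lower in libraries labelled cKO: the heparan sulfate proteoglycans Gpc4 (1.17) and Sdc2 (0.79) rose and Gpc6 fell by 0.96. Of 20 adaptors and docking proteins 19 were tested, with 2 higher and 5 lower. Frs2, the docking protein of FGF receptors, was at -0.76 (adjusted p = 0.016), the RAS exchange factor Sos2 at -0.83 (adjusted p = 0.0067), Shc2 at -2.91 (adjusted p = 0.025) and Nck2 at 2.06 (adjusted p = 0.019). Of 11 receptor-level inhibitors, all tested, none was higher and 2 were lower, Grb10, which restrains insulin and IGF receptor signalling, by -4.29 (adjusted p = 0.0046) and Lrig2 by -0.89 (adjusted p = 0.039). Of 23 genes of the RAS-ERK and PI3K core, 2 were higher and 3 lower at 0 h, among them Map2k1 (0.81) and Akt2 (0.91) higher, and Braf (-0.98) and Pdpk1 (-0.79) lower. Of 27 other receptor tyrosine kinases 17 were tested, with 1 higher, the collagen receptor Ddr1 (1.32), and 2 lower, Pdgfra (-2.81), a marker of oligodendrocyte progenitors, and Ntrk3 (-0.90). Medians of the lists at 0 h ran from -0.13 for the core to 2.74 for the FGF ligands, against -0.01 over all genes.

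At 4 h, where 11.0% of all genes were higher and 9.11% lower, a balance that moved with the scaling, 5 of the 11 tested co-receptors were higher and 1 lower in libraries labelled cKO, 4 of 19 adaptors were higher and 1 lower, and 3 of 11 receptor-level inhibitors were higher and 2 lower. Irs2, a docking protein of insulin and IGF receptors, was at 3.77 (adjusted p = 0.025) and Irs1 at -1.35 (adjusted p = 0.012). Errfi1, an EGFR inhibitor, was at 1.44 (adjusted p = 0.029), and Lrig1, which also restrains EGFR, at 1.16 (adjusted p = 0.029). Of the core 4 were higher and 4 lower, with Mtor at 0.91 (adjusted p = 8.3e-04) and Braf at -1.31 (adjusted p = 0.0033).

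Actinomycin D blocks new transcription, so the change over time compares how long transcripts last relative to the other transcripts in a library. In WT libraries 4 of the 8 receptors were lower at 4 h than at 0 h, Egfr, Fgfr2, Igf1r and Insr, and none was higher. Among all genes 15.6% were higher and 24.2% lower in that comparison. Of those calls 39.2% were higher, against 13.7% with library size alone, 6.19% by limma on TPM and 0.806% with the ribosomal reference. Median log2 change over the receptors was -0.67, against 0.00 over all genes. Fgfr2 had 15.8, 20.5 and 16.5 CPM at 0 h, 7.23, 11.5 and 8.01 CPM at 2 h and 7.53, 6.68 and 7.24 CPM at 4 h in WT libraries. Its log2 change at 4 h was -1.30 (SE 0.43, adjusted p = 0.0252) with no overlap of the groups.

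Igf1r in WT libraries had 27.6, 29.8 and 26.9 CPM at 0 h, 19.8, 24.3 and 22.2 CPM at 2 h and 12.3, 20.2 and 22.8 CPM at 4 h, a log2 change at 4 h of -0.61 (SE 0.20, adjusted p = 0.0232). Insr changed at 4 h by -0.73 (SE 0.26, adjusted p = 0.0351), with 7.91, 11.6 and 14.2 CPM at 4 h against 17.4, 21.0 and 17.5 CPM at 0 h. Egfr changed by -0.52 (SE 0.19, adjusted p = 0.0443), with 78.8, 67.7 and 72.6 CPM at 4 h against 113, 91.3 and 109 CPM at 0 h. Each of these 4 calls was lost in 5 to 8 of the leave-outs, with adjusted p up to 0.304 for Egfr, 0.173 for Fgfr2, 0.300 for Igf1r and 0.254 for Insr. Leaving out WT culture 1 or the 4 h replicate 1 gave Igf1r -0.31 and -0.30, and its call was also lost without WT culture 2, the 0 h replicate 2 or the 4 h replicate 2. Fgfr2 was lost without any WT culture, the 0 h replicate 2 or any 4 h replicate. Egfr and Insr were lost without any WT culture, the 0 h replicate 1 or 3, or the 4 h replicate 1 or 2, Egfr also without the 4 h replicate 3, and Insr also without the 0 h replicate 2. The Egfr call was also lost by DESeq2 (-0.44, adjusted p = 0.0614), with RLE factors (adjusted p = 0.0751) and without the low-count filter (adjusted p = 0.133). That of Insr was also lost with RLE factors (adjusted p = 0.0568) and without the filter (adjusted p = 0.0714), and that of Igf1r without the filter (adjusted p = 0.0870).

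At 2 h against 0 h no receptor passed in WT libraries by edgeR or by DESeq2, and 1 had an unadjusted p under 0.05; among all genes 3.63% were higher and 13.7% lower. Of these calls 20.9% were higher, against 6.26% with library size alone, 2.77% by limma on TPM and 0.844% with the ribosomal reference. With the culture as a replicate block Fgfr2 passed at 2 h, with a log2 change of -0.99 (adjusted p = 4e-04). In a fit of the 6 compared libraries alone Fgfr2 (-0.99, adjusted p = 9.6e-04) and Igf1r (-0.35, adjusted p = 0.0279) passed. With the ribosomal reference Fgfr2 (-1.38, adjusted p = 0.0370) and Igf1r (-0.75, adjusted p = 0.0131) passed, and by limma on TPM Igf1r (-0.48, adjusted p = 0.0437). The percentages of all genes higher and lower are from the main fit, so they are no background for these calls.

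In libraries labelled cKO, Igf1r was the 1 receptor that passed. It had 56.1, 46.9 and 40.4 CPM at 0 h, 30.0, 29.1 and 27.9 CPM at 2 h and 27.1, 27.4 and 26.1 CPM at 4 h. Its log2 change was -0.72 at 2 h (SE 0.20, adjusted p = 0.0250) and -0.83 at 4 h (SE 0.20, adjusted p = 0.00470). Among all genes 2.21% were higher and 9.85% lower at 2 h, and 12.1% higher and 18% lower at 4 h. Of the calls 18.3% were higher at 2 h, against 5.41% by limma on TPM and 1.21% with the ribosomal reference. At 4 h 40.1% were higher, against 14% with library size alone, 6.75% by limma on TPM and 0.589% with the ribosomal reference. The call at 2 h was lost without cKO culture 1 or 2 and without replicate 1 or 2 labelled cKO at 0 h or any of the 3 at 2 h (adjusted p between 0.0503 and 0.162). It was also lost without the low-count filter (adjusted p = 0.0733) and in a fit of the 6 compared libraries alone (adjusted p = 0.194), where the call at 4 h was lost too (adjusted p = 0.0693). With the culture as a replicate block Fgfr2 also passed at 4 h, at -0.61 (adjusted p = 0.0070).

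No receptor passed the test of a difference in slope over time between the labels. The slope difference passed for 0 of 8 by edgeR, 0 had an unadjusted p under 0.05, and DESeq2 also called 0. Among all genes 0.00713% had a higher slope in libraries labelled cKO and 0% a lower one. The largest difference was 0.30 log2 per hour for Erbb2 (95% interval -0.35 to 0.94), then 0.17 for Fgfr2 (interval -0.13 to 0.48). For Fgfr3 it was -0.03 (interval -0.21 to 0.15). A p that misses the threshold does not show that the slopes were alike.

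**Figure D4:**
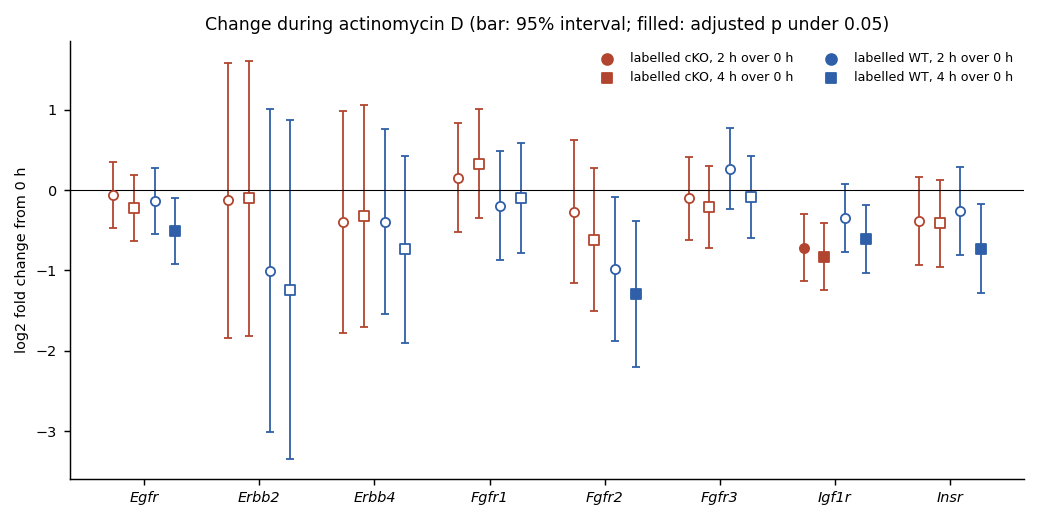
Log2 fold change of each receptor at 2 and 4 h in actinomycin D over 0 h, for libraries labelled cKO and WT, with 95% intervals as bars and filled points for adjusted p under 0.05. Igf1r is below 0 at 4 h under both labels, and Fgfr2, Egfr and Insr pass at 4 h in libraries labelled WT.

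Among docking proteins and inhibitors of the pathway, 11 of 19 tested adaptors (median -1.34) and 7 of 11 inhibitors (median -1.21) were lower at 4 h in WT libraries and none was higher, where 24.2% of all genes were lower and 15.6% higher (median 0.00). On the log2 scale Nck1 was at -3.48, Frs2 at -2.43, Sos1 at -1.70, Errfi1 at -3.98 and Cblb at -2.82. Of 7 tested EGF family ligands 3 were lower, with Hbegf at -1.76, Egf at -3.38 and Ereg at -4.68. In libraries labelled cKO 7 of 19 adaptors and 5 of 11 inhibitors were lower at 4 h, and 1 inhibitor was higher, where 18% of all genes were lower and 12.1% higher.

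The m6A pull-down measures which transcripts carry N6-methyladenosine, by the ratio of pull-down to input. None of the 9 receptors passed by edgeR or by DESeq2, and none had an unadjusted p under 0.05, while 6.06% of 14167 genes were higher and 14.3% lower. Of all calls 29.8% were higher, against 73.7% with library size alone and 90.4% by limma on TPM. Igf1r had 168, 135 and 183 CPM in the pull-down, against 143, 108 and 156 CPM in the input. Each pull-down was above the input of the same number (log2 difference 0.25, SE 0.15, adjusted p = 0.277), and blocking on replicate number gave 0.26 with adjusted p = 3e-04. Erbb4 had 8.93, 10.5 and 8.46 CPM in the pull-down, against 12.7, 9.29 and 16.7 CPM in the input (log2 difference -0.46, adjusted p = 0.165), with -0.43 and adjusted p = 0.050, just under the threshold, under the block. Egfr had 278, 183 and 227 CPM in the pull-down, against 214, 168 and 243 CPM in the input, which overlap (log2 difference 0.14, adjusted p = 0.613). The other 6 differences ran from 0.00 for Insr to 0.77 for Erbb3.

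With limma on the deposited TPM, 5 of 9 receptors were higher in the m6A pull-down, Egfr by 0.60, Fgfr1 by 0.51, Fgfr3 by 0.50, Igf1r by 0.71 and Insr by 0.44, and so were 51.1% of all genes, while 5.44% were lower. On that scale the median over all genes was higher by 0.39 than in the count fit. Insr, at 0.00 from the counts, passed on that scale only. In the count fit 3 of 19 adaptors were higher in the pull-down, Crkl, Ptpn11 and Irs1, Fgf1 was higher by 0.28 and Igfbp2 was at -1.23, where 6.06% of all genes were higher and 14.3% lower.

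YTHDF2 binds m6A, and its pull-down is set against input and against IgG, which shows what comes down without an antibody against YTHDF2. In this series the titles swap input and YTHDF2 relative to the descriptions. The groups follow the descriptions, which match the count columns. By these, Ythdf2 itself was higher in the YTHDF2 pull-down by 1.34 over input and by 1.60 over IgG on the log2 scale. By the titles, every difference of YTHDF2 over input has the opposite sign.

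Over input, Igf1r, Insr and Fgfr1 were higher and Fgfr3 was lower in the YTHDF2 pull-down, 4 of 9 tested. Among 14255 genes 30.7% were higher and 17.5% lower, so that 63.7% of calls were higher, against 52.5% with RLE factors and 82.9% by limma on TPM, and the median was 0.50 over the receptors against 0.23 over all genes. Igf1r had 115, 134 and 124 CPM in the YTHDF2 pull-down, against 69.7, 86.2 and 68.1 CPM in the input (log2 difference 0.73, SE 0.15, adjusted p = 0.00198). Insr had 52.4, 67.1 and 70.8 CPM in the YTHDF2 pull-down, against 37.1, 25.8 and 34.9 CPM in the input (log2 difference 0.96, SE 0.18, adjusted p = 0.00130). Fgfr1 had 48.2, 42.9 and 49.2 CPM in the YTHDF2 pull-down, against 27.8, 31.1 and 25.1 CPM in the input (log2 difference 0.74, SE 0.18, adjusted p = 0.00501). Groups did not overlap for these 3, and their calls held under 12 of 13 alternatives, the exception being the titles. Fgfr3 had 49.5, 45.7 and 38.9 CPM in the YTHDF2 pull-down, against 71.0, 69.7 and 49.7 CPM in the input (log2 difference -0.51, SE 0.19, adjusted p = 0.0435). That call held under 5 of 13, and was lost without input replicate 1 or 2 or YTHDF2 replicate 2 or 3 (adjusted p between 0.0840 and 0.149). It was also lost with library size alone (-0.42, adjusted p = 0.0859), without the low-count filter (adjusted p = 0.0503) and by limma on TPM (-0.11, adjusted p = 0.681). Blocking on replicate number, 7 of 9 passed, adding Egfr (0.32, adjusted p = 0.0240), Fgfr2 (0.51, adjusted p = 0.0063) and Erbb3 (1.33, adjusted p = 0.0069). The shares of all genes above are from fits without the block, so they are no background for this count.

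Over IgG, Igf1r was the 1 receptor that was higher in the YTHDF2 pull-down, at 1.71-fold. IgG libraries had 70.1, 70.6 and 77.8 CPM, all below the 3 YTHDF2 libraries (log2 difference 0.77, SE 0.15, adjusted p = 0.00352). Among all genes 14.3% were higher and 0.330% lower, so that 97.7% of calls were higher, against 84.3% with RLE factors, and the median over the receptors was 0.32 against -0.08 over all genes. With the titles' naming the Igf1r difference over IgG was 0.04 (adjusted p = 0.869). Insr was at 0.52 (SE 0.18, adjusted p = 0.0842), with IgG libraries at 45.3, 40.0 and 47.2 CPM, and Egfr at 0.56 (SE 0.19, adjusted p = 0.0876). Blocking on replicate number, 4 of 9 passed: Igf1r, Insr (0.53, adjusted p = 0.0068), Egfr (0.56, adjusted p = 0.0010) and Fgfr1 (-0.38, adjusted p = 0.0394). The shares of all genes given here are from fits without the block, so this count also has no background. By DESeq2 Fgfr1 was also lower in the YTHDF2 pull-down than in IgG (-0.52, adjusted p = 0.0376).

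Fgfr1 was also higher in IgG than in input libraries, by 1.14 (SE 0.18, adjusted p = 5.5e-04), with 57.4, 75.9 and 51.6 CPM in IgG against 27.8, 31.1 and 25.1 CPM in the input. With the titles' naming that call was lost (0.40, adjusted p = 0.171), and Fgfr1 was at -1.14 in YTHDF2 over IgG (adjusted p = 5.5e-04). Under that naming Igf1r was lower in IgG than in input, at -0.77 (adjusted p = 0.0035). By the descriptions, the difference of Fgfr1 over input was 0.74 in the YTHDF2 pull-down and 1.14 in the IgG libraries. Among all genes 20.2% were higher and 17.0% lower in IgG than in input, so that 54.3% of calls were higher, against 64.8% with library size alone and 79.9% by limma on TPM, and 1 of 9 receptors passed. Blocking on replicate number, Insr at 0.44 (adjusted p = 0.0133) and Fgfr3 at -0.44 (adjusted p = 0.0043) also passed. The share of Fgfr1 in the summed FGFR TPM was 37.5% ± 1.65 in the YTHDF2 pull-down, 45.0% ± 5.62 in IgG and 23.6% ± 2.15 in input (SD, n = 3 each). In the main edgeR fits no receptor was higher in m6A over input, YTHDF2 over input and YTHDF2 over IgG at once. These fits had no block, and 2.65% of all genes met all 3. With the replicate block Igf1r was higher in all 3, with m6A over input at 0.26 (adjusted p = 3e-04). It was also higher in all 3 with library size alone and by limma on TPM. The share of all genes that met all 3 under these settings was not computed.

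**Figure D5:**
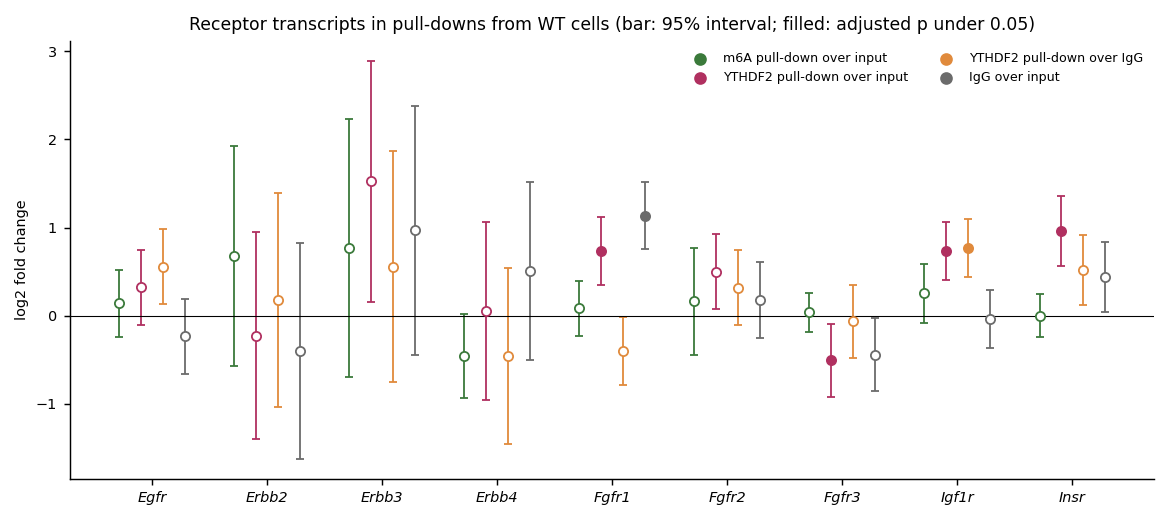
Log2 difference of each receptor in the m6A pull-down over input, the YTHDF2 pull-down over input and over IgG, and IgG over input, with 95% intervals as bars and filled points for adjusted p under 0.05. Igf1r lies above 0 in the YTHDF2 pull-down against both input and IgG, while Fgfr1 lies above 0 against input in both the YTHDF2 and the IgG libraries.

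Of the 18 tested adaptors 10 were higher and 1 lower in the YTHDF2 pull-down over input, where 30.7% of all genes were higher and 17.5% lower. Over IgG 7 were higher and none lower, where 14.3% of all genes were higher and 0.330% lower. Over IgG those with the smallest p were Nck1 at 2.53, Irs2 at 2.20, Crk at 1.72 and Crkl at 1.66. The ligands Tgfa (0.74) and Fgf1 (0.90) and the IGF binding protein Igfbp3 (0.97) were also higher over IgG, as were Hras1 (1.57), Pik3r1 (1.08) and Rps6kb1 (0.63) of the core.

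Across the 18 RNA-seq libraries, genes whose log2 CPM was most like that of each receptor were compared among 5669 genes, by Pearson's r as a description. Likeness also reflects the contrast between labels and the library. Igf1r was most like Chka (0.922) and Trim8 (0.921), Fgfr1 most like Tmod1 (0.959) and Extl3 (0.949), and Fgfr3 most like Igfbp5 (0.912) and Cadm2 (0.911). Fgfr2 was most like Lrig1 (0.911), Egfr most like Pot1a (0.933), Erbb2 most like Tubb6 (0.910), Erbb4 most like AW549877 (0.970) and Insr most like Tead1 (0.907).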

How the data were processed

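Counts per gene and TPM were deposited by the authors. Per the labels' protocols the RNA-seq libraries were made by SMART-seq2 and the pull-down libraries by a modified SMART-seq3 protocol. Per the submitters' processing notes reads were handled with bcl2fastq 2.17.1.14, Trimmomatic 0.32 and STAR 2.5.2a on GRCm38. Neither the counting tool nor the annotation is given in the sources used here. TPM values are used as the authors deposited them.

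Counts were tested with edgeR 4.0.16 (R 4.3.3; TMM, filterByExpr, quasi-likelihood, two-sided, Benjamini-Hochberg over all genes tested, threshold 0.05), 1 fit per assay over all its libraries, with DESeq2 1.42.0 and limma 3.58.1 as alternatives. Differences are the first named group minus the second, on the log2 scale. The fits were tested on simulated counts, drawn independently for each library with the same spread of a gene in all groups. Deviations shared by same-numbered libraries, and the larger differences among libraries labelled cKO, were not simulated. Of the 26621 genes 14029 passed the low-count filter in RNA-seq, with 8 of the 9 receptors, and 9 of 9 passed in the other series. Among the 33 pairs of libraries within a group, none were near copies of each other. Unused per-sample columns numbered 0. Members and lists were chosen with earlier results of these data known. From each list up to 4 genes with the smallest p in a comparison were named, and for each receptor the 2 most alike genes.

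In the YTHDF2 series titles swap input and YTHDF2 relative to the descriptions; groups follow the descriptions and the count columns. Same-numbered libraries deviated together in the m6A series (correlation of deviations 0.109 to 0.504, 3 pairs) and the YTHDF2 series (0.409 to 0.705, 9 pairs). They also did so across times of 1 label in RNA-seq (0.177 to 0.796, 18 pairs). A block on replicate number was therefore fitted there, as an alternative only. The main fits, with their calls, counts and figures, had no block. Across labels the correlation of deviations was -0.207 to 0.0768 (27 pairs), so the numbers do not pair those libraries.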

Additional observations from a re-analysis of the deposited data

How the results depend on the processing

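The number of receptors called was recomputed under each alternative. Between the labels it was 3 at each time. At 0 h it was 4 by DESeq2, with RLE factors, without the low-count filter and with the replicate block. It was also 4 with the 6 compared libraries alone, and 2 with the ribosomal reference. At 2 h it was 4 by DESeq2, without the filter and with the block, and 5 with library size alone. At 4 h it was 5 by DESeq2 and with the block, 4 without the filter and 6 with library size alone. Among all genes library size alone gave 1927 higher and 924 lower at 2 h, and 2499 and 954 at 4 h. Leaving out a replicate or a culture gave 0 to 6 at 0 h, 1 to 5 at 2 h and 1 to 6 at 4 h. In WT at 2 h against 0 h it was 0, with 1 by limma on TPM, 2 with ribosomal protein genes as reference, 1 with the culture as replicate block and 2 with the 6 compared libraries alone, and 0 to 0 in the leave-outs. In WT at 4 h it was 4, with 3 by DESeq2, 2 by RLE, 1 without the low-count filter and 0 to 2 in the leave-outs. It was 5 by limma on TPM and with the 6 compared libraries alone, and 6 with the ribosomal reference. In libraries labelled cKO at 2 h it was 1, with 0 without the filter, 0 with the 6 compared libraries alone and 0 to 1 in the leave-outs. At 4 h it was 1, with 3 by limma on TPM, 5 with the ribosomal reference, 2 with the culture as replicate block, 0 with the 6 compared libraries alone and 1 to 2 in the leave-outs. For m6A it was 0, with 1 by library size alone, 5 by limma on TPM, 2 with the replicate block and 0 to 1 in the leave-outs. For YTHDF2 over input it was 4, with 5 by limma on TPM, 7 under the replicate block and 3 to 6 in the leave-outs. For YTHDF2 over IgG it was 1, with 2 by DESeq2, 4 under the replicate block and 1 to 2 in the leave-outs. For IgG over input it was 1, with 2 by library size alone, 2 by limma on TPM, 3 under the replicate block and 1 to 2 in the leave-outs. The slope difference stayed at 0 under each alternative.

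The replicate block across labels, whose numbers do not pair those libraries, added Fgfr1 at 0 h (0.90, adjusted p = 0.0482), Fgfr2 at 2 and 4 h (1.06 and 0.94) and Insr at 4 h (0.76). Apart from those given beside the results, the block changed no other receptor call. Reversed signs were those of YTHDF2 over input under the titles (Fgfr1 -0.74, Fgfr3 0.51, Igf1r -0.73, Insr -0.96), whose construction swaps the groups. Insr in the m6A series was at -1.8e-05 in the main fit, in effect without a direction, and at 0.44 by limma on TPM. The cause of the other changes was not tested. Scaling moved the median of all genes: by -0.18 at 0 h between labels and -0.72 at 4 h against 0 h in WT with ribosomal protein genes as reference, and by 0.39 for m6A by limma on TPM. No called receptor of RNA-seq changed sign. Low counts of Erbb2 and Erbb3, and of Erbb4 in libraries labelled cKO, limit what can be said of them.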
